A study of Homo sapiens with 21 samples.

Results

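The nuclear-encoded subunits of the mitochondrial respiratory chain were followed through oxidative stress and DNA double-strand breaks in hTERT-HPNE cells. Members were the genes whose symbol starts like a subunit of complex I (NDUFA, NDUFB, NDUFC, NDUFS or NDUFV and a digit), names a succinate dehydrogenase subunit (SDHA to SDHD), or starts with UQCR for complex III, COX5 to COX8 and a letter for complex IV, or ATP5 for complex V. This rule found 88 of the 23368 listed genes. COX7B2 and ATP5J2-PTCD1 were listed at 0 in every library, which left 86 members among the 19694 genes whose value varied. They comprised 39 genes of complex I, 4 of complex II, 10 of complex III, 14 of complex IV and 19 of complex V. Not every match is a subunit: 73 were classed as ordinary subunits and 5 as tissue isoforms or paralogues, while 8 were retrocopies (UQCRHL, ATP5L2), pseudogenes (UQCRBP1, ATP5EP2), a read-through transcript (NDUFC2-KCTD14) or proteins that are not part of the named complex (COX7A2L, ATP5S, ATP5SL). COX4I1 and COX4I2 fall outside the symbol rule and are described with the other subunits that it misses. NDUFA4 was counted by its symbol under complex I, although the protein is now known to sit in complex IV.

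Complexes I to IV pass electrons from NADH and succinate through ubiquinone and cytochrome c to oxygen, and complexes I, III and IV pump protons that complex V, the ATP synthase, uses to make ATP. Most subunits are made from nuclear genes and imported, while a few central ones are encoded by mitochondrial DNA, whose transcripts were not analysed here. The chain is a source of reactive oxygen species and also one of their targets, and complex II doubles as an enzyme of the TCA cycle.

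hTERT-HPNE is an immortalized nontransformed pancreatic cell line that carries an hTERT transgene, and all cells, untreated ones included, grew in medium with glucose, EGF and puromycin. RNA-seq libraries were made from untreated cells at time 0 and from cells 4, 8 or 24 h after 300 µM H2O2 or 400 ng/ml neocarzinostatin (NCS), a radiomimetic drug, with 3 biological replicates in each of the 7 groups. Treated cells received fresh medium with the agent, and untreated cells of the later times were not analysed here, so treatment and time in fresh medium cannot be told apart in any comparison with untreated cells. Comparisons of H2O2 with NCS at the same time do not have this limit.

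The values are the authors' rLog values, log2 expression normalized for library size that shrinks differences, most of all at low counts. Because the table holds no counts, the depth of the libraries is not known, and the precision of each value rests on the replicates. Library medians lay between 7.14 and 7.19, and no pair of libraries held identical values. The markers of a mesenchymal cell were high, with mean values of 17.03 for VIM and 20.04 for FN1, while the 7 ductal markers were mixed, with KRT18, KRT8, KRT7 and SOX9 at 11.62, 7.93, 6.93 and 6.07, CDH1 at 3.79, and KRT19 and EPCAM near the bottom of the scale at 0.60 and -1.76. CDKN1A, a p53 target, was higher than in untreated cells in all 6 treated groups, by 1.21 to 1.62, and HMOX1, a target of the oxidative stress response, was 3.44 higher 4 h after H2O2 and 0.88 higher 4 h after NCS.

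Differences of respiratory chain transcripts were small, and most of those called were upward. The 86 members were mostly well expressed, with 76 at a mean value of at least 7 and 8 below 5. The median SD between the 3 replicates of a group was 0.032 to 0.046 over members. No member differed from untreated cells by more than 0.58 in any group, and the largest difference was that of NDUFA4L2 at 24 h after H2O2, 0.53 or 1.44-fold on the shrunken scale. Members were called by the adjusted p-value of limma alone (under 0.05 after Benjamini-Hochberg adjustment over all 19694 genes), with no limit on the size of the difference. In a test across all 7 groups, 58 of the 86 members varied, beside 70.6% of all genes, so the share that varied was close to the background. In bulk RNA, a change in the share of some cells and a change in the RNA of each cell cannot be told apart.

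Calls in the upward direction were most frequent 4 h after H2O2 and 24 h after NCS. At 4 h after H2O2, 44 members were higher than in untreated cells and 3 were lower, beside 26.2% and 19.7% of all genes, and the median difference of the members was 0.097. At 8 h, 12 were higher and 4 lower, where 18.8% and 18.6% of all genes were called, so the upward share of the members was below that background. At 24 h, 21 were higher and 5 lower, beside 20.2% and 19.9% of all genes, with a median of 0.027. Quantile normalization raised the upward count at 24 h to 33, and the downward count was 3 without H2O2 24 h replicate 1 or without replicate 2. With library medians aligned, 17 were higher and 9 lower at 24 h.

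After NCS, most calls came at 24 h. At 4 h, 4 members were higher and 0 lower in limma's test, beside 7.47% and 9.72% of all genes, and at 8 h, 3 were higher and 0 lower, beside 10.5% and 13.3%. At an unadjusted p under 0.05, 1 member was lower at 4 h and 1 at 8 h. The upward count at 4 h was 2 without untreated replicate 1, untreated replicate 2 or NCS replicate 1. The upward count at 8 h was 17 with quantile normalization, 6 without untreated replicate 3 and 5 without NCS replicate 1, and 1 member was lower there without NCS replicate 3. At 24 h, 38 members were higher and 3 lower, beside 19.6% and 18.4% of all genes, with a median of 0.075. The median over all 19694 genes was within 0.004 of 0 in each of these 6 comparisons. In each library 4 h after H2O2 the median member lay 0.086 to 0.10 above the untreated mean, and in each library 24 h after NCS it lay 0.069 to 0.081 above it, while the untreated libraries themselves ranged from -0.012 to 0.022.

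Because most members are abundant, the calls were also read against abundant genes. Testing only genes with a mean value of at least 10 left 59 members. At 4 h after H2O2, 39 of them were higher and 2 lower, beside 28.9% and 35.3% of the genes tested, and at 24 h after NCS 33 and 5, beside 36.5% and 34.6%. Upward calls thus outnumbered downward calls in the members and not, or only slightly, in abundant genes. For the 8 h H2O2 group there were 11 and 6, beside 31.5% and 35.9%, and for the 24 h H2O2 group 21 and 4, beside 31.3% and 40.5%, so that the upward share at 24 h after H2O2 was close to that of abundant genes and the downward share was below it. The groups at 4 h and 8 h after NCS had 5 and 5 members higher, beside 15.3% and 19.9%, and 0 and 0 lower, beside 23.5% and 30.2%. Between the treatments at 4 h, 20 were higher after H2O2 and 2 lower, beside 29.5% and 30.9%, at 8 h 6 and 6, beside 34.2% and 27.8%, and at 24 h 4 and 20, beside 21.3% and 31%.

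The replicates of 62.8% of the members did not overlap those of untreated cells at 4 h after H2O2, beside 49.5% of all genes. These shares were 52.3% and 44.5% at 24 h after NCS, 26.7% and 42% at 8 h after H2O2, and 39.5% and 59.7% at 24 h after H2O2. They were 19.8% and 30% at 4 h and 17.4% and 33.8% at 8 h after NCS.

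All 6 comparisons use the same 3 untreated libraries. Over the 6, 62 members rose in at least 1 comparison and 9 fell in at least 1. Of these, 4 were counted in both, among them NDUFS1, NDUFV3 and UQCRFS1. The shares of all genes called in at least 1 of the 6 or in none were not computed. These counts therefore cannot be set against a background. The 19 members that passed the test in none included the α subunit of the ATP synthase (ATP5A1), the flavin-binding subunit of complex I (NDUFV1), the iron-sulfur subunits NDUFS7 and NDUFS8, and the iron-sulfur and anchor subunits SDHB and SDHD.

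**Figure D1:**
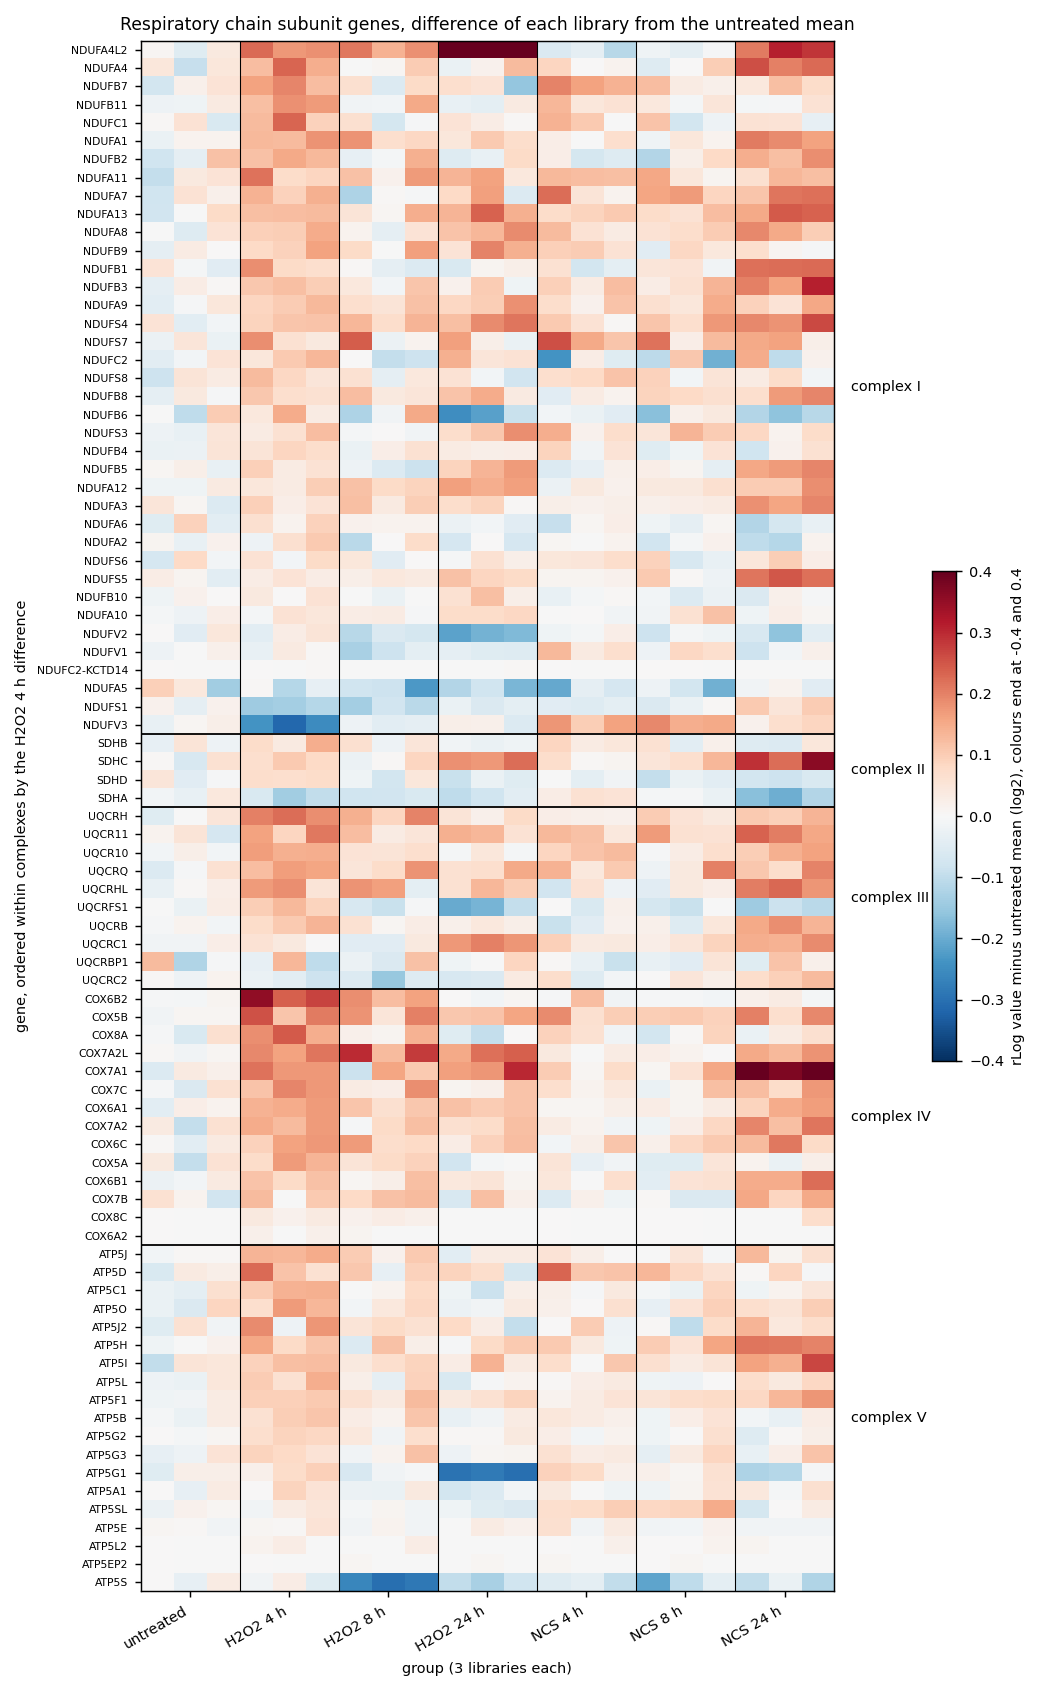
Each row is one of 85 members and each column one of the 21 libraries, and the colour gives the rLog value minus the mean of the 3 untreated libraries (log2, with colours ending at -0.4 and 0.4). Red dominates complexes III and IV in the H2O2 4 h and NCS 24 h libraries, NDUFV3 is the dark blue row of H2O2 4 h and ATP5G1 that of H2O2 24 h.

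The share of members called differed between the complexes. Complex IV had the largest share of calls 4 h after H2O2, with 13 of 14 members higher and a median difference of 0.15. The 13 include COX6A2 and COX8C, near the bottom of the scale, with differences of 0.013 and 0.03. Of the 9 ordinary subunits of complex IV, all but COX7B were higher. Complex III followed with 7 of 10 and a median of 0.12, complex V with 10 of 19 and 0.089, and complex I with 14 of 39 and 0.078. Of the 4 genes of complex II, none was called higher by limma (3 at an unadjusted p under 0.05) and SDHA was lower, in a comparison that called 26.2% of all genes higher. Of genes with a mean value of at least 10, tested alone, 28.9% were called higher at 4 h after H2O2. At 24 h after NCS the order differed, with 7 of 10 members of complex III and 9 of 14 of complex IV higher. There were 18 of 39 in complex I, 1 of 4 in complex II and 3 of 19 in complex V. In that comparison 19.6% of all genes were called higher, and the shares of complexes II and V, 25% and 15.8%, were near that. Of genes with a mean value of at least 10, tested alone, 36.5% were called higher, and both shares were below that. At 24 h after H2O2, 14 of 39 members of complex I, or 35.9%, were higher, beside 20.2% of all genes. That share was close to the 31.3% of genes with a mean value of at least 10, tested alone. None of complex V was higher there (1 at an unadjusted p under 0.05). These differences between complexes are descriptions and were not tested as such. With quantile normalization, the counts at 4 h after H2O2 changed for complex II from 0 to 3 and for complex I from 14 to 26, and complex I had 9 with library medians aligned. Single libraries mattered as well, since the counts at 4 h were 8 for complex I and 6 for complex V without untreated replicate 1, 9 for complex I without H2O2 replicate 2 or 3, and 4 for complex III without untreated replicate 2. The complex I count at 24 h after H2O2 was 9 without untreated replicate 1. The complex V count at 24 h after NCS was 5 without untreated replicate 3 and 6 with quantile normalization.

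**Figure D2:**
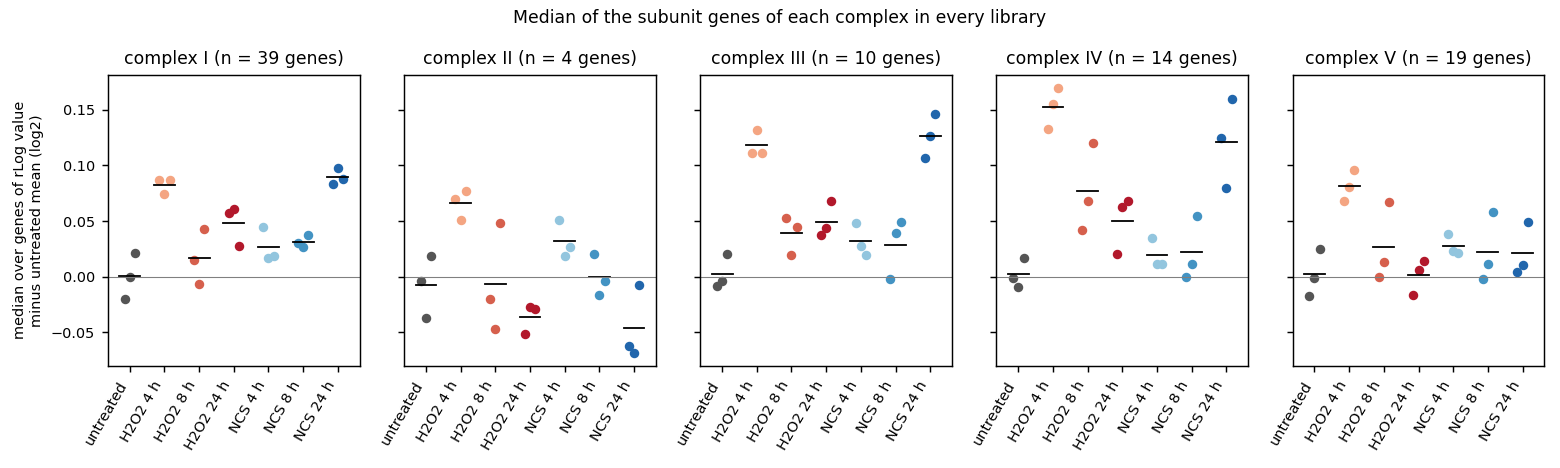
Points give, for each library, the median over the members of a complex of the rLog value minus the untreated mean (log2), and bars the mean of 3 libraries. The complex IV medians of H2O2 4 h lie between 0.13 and 0.17, above all untreated libraries, and those of complex V 24 h after NCS lie between 0.0038 and 0.049, with 2 of the 3 inside the range of the untreated libraries.

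Because many members were called in the same 2 groups, their promoters were searched for the sequence elements of 3 factors known to drive respiratory genes, NRF1, ETS factors such as GABP, and YY1. Promoters of 66 of the 86 members were in the RefSeq table (GRCh38.p14), each running from 250 bases before to 50 bases after the gene's start. The letters CATGCGC of NRF1, on either strand, occurred in 14 of 66, or 21.2%, beside 4.67% of all 27305 promoters. The letters CCGGAAG of ETS factors occurred in 18, or 27.3%, beside 10.7%, and AAGATGG of YY1 in 16, or 24.2%, beside 6.06%. Both the NRF1 and the ETS letters were found in 6 members and in 0.897% of all promoters. ACGTG, the core of the hypoxia response element, was at 27.3% against 21.6%.

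Members with the ETS letters had a median difference of 0.13 at 4 h after H2O2 and 0.12 at 24 h after NCS, and the 48 members without them 0.077 and 0.032. For the NRF1 letters the medians were 0.09 and 0.062 with them and 0.10 and 0.075 without. For the YY1 letters they were 0.10 and 0.12 with them and 0.095 and 0.032 without. For ACGTG, little more frequent in members than in all promoters, they were 0.088 and 0.11 with it and 0.10 and 0.061 without. These medians are descriptions with no test, and a match of letters is not a bound site.

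The 150 bases before the start are printed below from RefSeq, 5′ to 3′ on the strand of the gene, for members on which the following results turn. Capitals mark NRF1 or ETS letters on either strand. COX5B and ATP5J hold both and rose 4 h after H2O2. SDHD also holds both, with 2 overlapping NRF1 matches, and did not pass the test against untreated cells in any group. Within these 150 bases, UQCRH and ATP5H hold only ETS letters. UQCRH had the largest complex III rise 4 h after H2O2 and ATP5H the largest complex V rise 24 h after NCS. NDUFV3, the member with the largest fall 4 h after H2O2, holds neither there. COX7A2L, COX7C and UQCR10, which also rose 4 h after H2O2, hold neither in their 150 bases. The counts given above used the longer window. The windows are COX5B chr2:97645912-97646061 (+ strand), ATP5J chr21:25735055-25735204 (- strand), SDHD chr11:112086723-112086872 (+ strand), UQCRH chr1:46303548-46303697 (+ strand), ATP5H chr17:75046970-75047119 (- strand) and NDUFV3 chr21:42893159-42893308 (+ strand).
COX5B: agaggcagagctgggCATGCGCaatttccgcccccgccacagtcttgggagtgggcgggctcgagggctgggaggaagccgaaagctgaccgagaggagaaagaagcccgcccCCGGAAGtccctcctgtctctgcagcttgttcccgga
ATP5J: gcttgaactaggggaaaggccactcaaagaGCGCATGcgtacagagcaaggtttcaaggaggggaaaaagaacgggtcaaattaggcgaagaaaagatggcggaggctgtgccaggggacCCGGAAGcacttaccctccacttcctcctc
SDHD: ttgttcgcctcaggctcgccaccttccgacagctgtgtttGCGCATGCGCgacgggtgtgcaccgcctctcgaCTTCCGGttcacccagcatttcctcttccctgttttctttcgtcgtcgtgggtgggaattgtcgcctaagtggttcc
UQCRH: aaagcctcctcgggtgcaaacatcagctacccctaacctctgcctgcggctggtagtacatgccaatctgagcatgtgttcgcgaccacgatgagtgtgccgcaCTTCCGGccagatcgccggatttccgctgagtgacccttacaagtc
ATP5H: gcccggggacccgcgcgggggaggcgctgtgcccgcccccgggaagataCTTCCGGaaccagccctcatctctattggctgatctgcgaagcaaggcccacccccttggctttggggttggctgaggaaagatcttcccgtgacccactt
NDUFV3: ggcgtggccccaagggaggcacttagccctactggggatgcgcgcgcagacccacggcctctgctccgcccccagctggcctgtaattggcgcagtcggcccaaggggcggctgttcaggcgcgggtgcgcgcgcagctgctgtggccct

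Complex I has a catalytic core that binds NADH and flavin, relays electrons through iron-sulfur clusters and reduces ubiquinone. Of the 7 core subunits encoded in the nucleus, 0 were higher and 1 lower 4 h after H2O2, while of the 30 accessory subunits 13 were higher and 1 lower, beside 26.2% and 19.7% of all genes. The medians were 0.013 for the core and 0.10 for the accessory subunits, a difference that was not tested. The 30 accessory genes include NDUFA4, counted by its symbol, which was among the 13 called higher and had the largest difference, 0.17. NDUFA4 was also called higher 24 h after NCS. At an unadjusted p under 0.05, 1 core subunit was higher and 1 lower. At 24 h after NCS, 2 core subunits were higher and 1 lower, against 15 and 0 of the accessory ones and 19.6% and 18.4% of all genes.

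NDUFS1, the large iron-sulfur subunit, was at 11.36, 11.31 and 11.36 in untreated libraries and at 11.20, 11.21 and 11.23 at 4 h after H2O2. It lay below untreated cells in all 3 libraries there, fell by 0.13 (SE 0.022, adjusted p = 8.49e-05), fell by 0.11 at 8 h (adjusted p = 0.00075), and was 0.084 higher 24 h after NCS (adjusted p = 0.00493).

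NDUFV2, an iron-sulfur subunit next to the flavin site, fell at 24 h, from 11.14, 11.09 and 11.18 in untreated libraries to 10.92, 10.95 and 10.96 after H2O2 and 11.07, 10.97 and 11.09 after NCS. All 3 H2O2 libraries were below the untreated ones, while the highest NCS library overlapped with the lowest untreated one. The fall was 0.19 (SE 0.033, adjusted p = 8.81e-05) after H2O2 and 0.089 (SE 0.033, adjusted p = 0.039) after NCS. NDUFS3, a core subunit near the flavin arm, was 0.12 higher 24 h after H2O2 (adjusted p = 0.0128). NDUFV1, NDUFS7 and NDUFS8 differed from untreated cells by -0.084 to 0.17 over the 6 groups without passing the test.

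NDUFV3, an accessory subunit of the NADH-oxidizing arm, was the member with the largest contrast between the treatments. Its values were 9.67, 9.71 and 9.72 in untreated libraries, 9.46, 9.39 and 9.45 at 4 h after H2O2 and 9.88, 9.80 and 9.86 at 4 h after NCS. The 3 groups did not overlap, with H2O2 lowest and NCS highest. The fall 4 h after H2O2 was 0.27 (SE 0.029, adjusted p = 5.6e-07) and the rise 4 h after NCS 0.15 (SE 0.029, adjusted p = 0.0015). At 8 h, it was back at 9.68, 9.66 and 9.67 after H2O2 and still at 9.89, 9.85 and 9.85 after NCS, where the rise was 0.16 (SE 0.029, adjusted p = 0.000334). At 24 h neither group passed the test against untreated cells.

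NDUFA4L2, a paralogue of NDUFA4 known for its induction in hypoxia, was weakly expressed and had the largest rise of all members. It was at 4.90, 4.84 and 4.93 in untreated libraries, at 5.12, 5.06 and 5.07 in the H2O2 libraries of 4 h, 5.10, 5.03 and 5.07 in those of 8 h and 5.30, 5.45 and 5.51 in those of 24 h, and at 5.10, 5.20 and 5.18 at 24 h after NCS. Each of these 4 treated groups lay above the untreated libraries. The rises were 0.19 (SE 0.05, adjusted p = 0.0036), 0.18 (SE 0.05, adjusted p = 0.00831) and 0.53 (SE 0.05, adjusted p = 6.33e-08) at the 3 times after H2O2, and 0.27 (SE 0.05, adjusted p = 0.000233) at 24 h after NCS. The rise 4 h after H2O2 did not pass the test with quantile normalization, where it was 0.052.

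Among the other accessory subunits, NDUFS4, which stabilizes the NADH-oxidizing arm, was called higher at all 3 times after H2O2, by 0.10 to 0.17, and by 0.12 and 0.21 at 8 h and 24 h after NCS. NDUFB7, an intermembrane-space subunit, had the largest rise 4 h after NCS among the complex I members that passed the test, by 0.17 (SE 0.051, adjusted p = 0.0303). That call was lost without untreated replicate 1 or 2 or NCS replicate 1 or 2, where the difference was 0.13 to 0.18. NDUFB6, a membrane-arm subunit, fell by 0.18 (SE 0.066, adjusted p = 0.0329) at 24 h after H2O2, although its replicates overlapped those of untreated cells. NDUFS5 was 0.23 higher 24 h after NCS (adjusted p = 1.06e-06). Several genes share exons with a neighbour on the same strand in GENCODE v29, among them NDUFA13 with YJEFN3, NDUFB2 with ADCK2, NDUFC1 with MGARP and NDUFS3 with PTPMT1, and their values are uncertain to that extent.

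Complex II, whose 4 subunits are all nuclear, had 1 subunit that fell and 1 that rose. SDHA, the flavoprotein that oxidizes succinate, was at 11.40, 11.38 and 11.45 in untreated libraries, and at 11.35, 11.27 and 11.31 in the H2O2 libraries of 4 h, 11.33, 11.33 and 11.35 in those of 8 h and 11.31, 11.33 and 11.37 in those of 24 h. Every H2O2 library was below every untreated one. The falls were 0.10 (SE 0.025, adjusted p = 0.00264), 0.072 (SE 0.025, adjusted p = 0.0286) and 0.074 (SE 0.025, adjusted p = 0.0219). After NCS, SDHA was at 11.44, 11.47 and 11.47 at 4 h and 11.24, 11.21 and 11.29 at 24 h, so that it overlapped untreated cells at 4 h and was lowest of all groups at 24 h, where it fell by 0.16 (SE 0.025, adjusted p = 3.11e-05). The call at 8 h after H2O2 was lost without untreated replicate 3 or H2O2 replicate 1 or 2, where the difference was -0.070 to -0.051. The call at 24 h was lost without untreated replicate 3 or H2O2 replicate 1 or 2, where it was -0.072 to -0.053, and with quantile normalization, where it was -0.024.

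SDHC, one of the membrane anchors that hold the haem and the ubiquinone site, rose at 24 h. It was at 10.67, 10.60 and 10.73 in untreated libraries, at 10.85, 10.84 and 10.89 at 24 h after H2O2 and at 10.96, 10.89 and 11.03 at 24 h after NCS. Both 24 h groups lay above untreated cells, by 0.19 (SE 0.038, adjusted p = 0.000324) and 0.29 (SE 0.038, adjusted p = 3.62e-06). SDHB, the iron-sulfur subunit, differed from untreated cells by -0.02 to 0.086 over the 6 groups, and SDHD, the other anchor, by -0.072 to 0.07, and neither passed the test in any. Between 4 h and 24 h after H2O2, SDHB fell by 0.10 (adjusted p = 0.017) and SDHD by 0.13 (adjusted p = 0.00116), in a comparison that called 32.4% of all genes lower.

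Complex III hands electrons from ubiquinol to cytochrome c. UQCRH, the acidic hinge protein that binds cytochrome c1, was at 11.10, 11.14 and 11.19 in untreated libraries and at 11.35, 11.37 and 11.33 at 4 h after H2O2, with no overlap. It rose by 0.20 (SE 0.028, adjusted p = 9.25e-06) at 4 h and by 0.14 (SE 0.028, adjusted p = 0.000467) at 8 h. Its retrocopy UQCRHL, which shares nearly all of its sequence, followed it (0.14 at 4 h after H2O2), and reads of the parent and the copy may not be separable. UQCRHL had the largest rise of complex III 24 h after NCS, 0.20 (SE 0.054, adjusted p = 0.00519).

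UQCRFS1, the Rieske iron-sulfur protein, was higher at 4 h and lower at 24 h. Its values were 10.89, 10.86 and 10.92 in untreated libraries, 10.99, 11.02 and 10.98 at 4 h after H2O2 and 10.69, 10.71 and 10.80 at 24 h after H2O2. All libraries at 4 h were above the untreated range and all at 24 h below it. The rise was 0.10 (SE 0.032, adjusted p = 0.0119) and the fall 0.16 (SE 0.032, adjusted p = 0.00041). It also fell by 0.11 (SE 0.032, adjusted p = 0.00914) at 24 h after NCS.

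UQCRC1, a core protein of the matrix side, was higher at 24 h. It was at 12.25, 12.25 and 12.29 in untreated libraries, 12.32, 12.31 and 12.27 at 4 h after H2O2 and 12.44, 12.47 and 12.44 at 24 h after H2O2. It did not pass the test at 4 h and rose by 0.18 (SE 0.026, adjusted p = 8.83e-06) at 24 h, and by 0.16 (SE 0.026, adjusted p = 5.53e-05) at 24 h after NCS. UQCR10, a small subunit, had the largest complex III rise 4 h after NCS, 0.11 (SE 0.023, adjusted p = 0.00251).

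Complex IV reduces oxygen, and its nuclear subunits surround a core made in the mitochondrion. Every one of the 14 members had a difference above 0 at 4 h and 8 h after H2O2. Of them, 13 and 5 passed the test, beside 26.2% and 18.8% of all genes called higher. The ordinary subunits COX5A, COX5B, COX6A1, COX6B1, COX6C, COX7A2, COX7C and COX8A were among those higher at 4 h, by 0.10 for COX6B1 to 0.19 for COX8A and COX5B, and COX7B at 0.076 was the one that did not pass. COX8A was at 11.65, 11.59 and 11.72 in untreated libraries and at 11.84, 11.90 and 11.80 at 4 h after H2O2, and returned to 11.60, 11.56 and 11.65 at 24 h. COX6A2 and COX8C, a muscle and a testis isoform, were listed at mean values of -1.76 and -0.69, near the bottom of the scale, and their called differences were 0.013 and 0.03. COX6A2 stood clear of its lowest level only in some libraries 4 h and 8 h after H2O2. It varied only through these groups, so its call is no support.

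COX7A2L, a relative of COX7A2 that joins complexes III and IV into supercomplexes, was higher at all 3 times after H2O2. It was at 10.98, 10.97 and 10.99 in untreated libraries, and at 11.17, 11.14 and 11.19 in the H2O2 libraries of 4 h, 11.28, 11.11 and 11.26 in those of 8 h and 11.13, 11.20 and 11.22 in those of 24 h. The 9 H2O2 libraries all exceeded the 3 untreated ones. The rises were 0.19 (SE 0.034, adjusted p = 0.000158), 0.24 (SE 0.034, adjusted p = 1.94e-05) and 0.20 (SE 0.034, adjusted p = 6.95e-05). After NCS it was at 11.02, 10.98 and 11.01 at 4 h and was called higher at 24 h alone, by 0.15 (SE 0.034, adjusted p = 0.00124).

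COX7A1, the isoform of heart and skeletal muscle, had the largest rise 24 h after NCS. Its values were 8.36, 8.45 and 8.43 in untreated libraries, 8.58, 8.59 and 8.71 at 24 h after H2O2 and 8.86, 8.78 and 8.83 at 24 h after NCS. The 3 groups were separate and in that order. It rose by 0.21 (SE 0.054, adjusted p = 0.0035) after H2O2 and by 0.41 (SE 0.054, adjusted p = 5.03e-06) after NCS. Of the muscle markers, MYH7 was listed at 0 in every library, CKM at 3.47 to 4.90 and ACTC1 at 3.45 to 3.94. At 24 h after NCS CKM differed by -0.0019 (adjusted p = 0.985) and ACTC1 was 0.16 lower (adjusted p = 0.0241). COX6B2, a testis isoform of low level, was at 2.03, 2.03 and 2.05 in untreated libraries and at 2.39, 2.27 and 2.31 at 4 h after H2O2, a rise of 0.29 (SE 0.033, adjusted p = 1.07e-06), and CKM rose in the same group, by 1.31.

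Complex V couples a proton-driven c ring to the catalytic F1 head through a central and a peripheral stalk. At 4 h after H2O2, 6 of 7 stalk and Fo subunits were higher, 3 of 5 F1 subunits and 1 of 3 genes of the c ring, beside 26.2% of all genes. ATP5J, the F6 subunit of the peripheral stalk, had the largest of these rises. It was at 10.36, 10.38 and 10.38 in untreated libraries and at 10.51, 10.50 and 10.52 at 4 h, a rise of 0.14 (SE 0.031, adjusted p = 0.00116). At 8 h ATP5F1, the b subunit of that stalk, was the one member of complex V called higher, by 0.074 (SE 0.025, adjusted p = 0.0254). That call was lost without untreated replicate 1 or 2 or H2O2 replicate 3, where the difference was 0.049 to 0.067.

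ATP5H, the d subunit of the peripheral stalk, had the largest complex V rise 24 h after NCS. It was at 11.02, 11.03 and 11.05 in untreated libraries and at 11.25, 11.25 and 11.24 at 24 h after NCS, with no overlap, and rose by 0.21 (SE 0.04, adjusted p = 0.000313). ATP5I and ATP5F1 also passed the test there, at 0.19 and 0.13, and no F1 or c-ring gene did (0 and 0 were higher at an unadjusted p under 0.05).

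The c ring is built from a single protein that 3 genes encode with different import sequences. ATP5G1 fell 24 h after H2O2, from 10.63, 10.71 and 10.70 in untreated libraries to 10.39, 10.40 and 10.38. Its libraries at 24 h were tightly grouped and below all others. The fall was 0.29 (SE 0.032, adjusted p = 4.15e-07), the largest of any member. ATP5G2 and ATP5G3 differed by 0.017 and -0.00036 in the same comparison and did not pass the test. At 24 h after NCS, ATP5G1 differed by -0.08 (adjusted p = 0.0563).

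Of the ATP5 symbols that are not subunits of complex V, 1 fell and 1 rose. ATP5S, a mitochondrial coupling factor, was at 7.06, 7.02 and 7.09 in untreated libraries and at 6.80, 6.76 and 6.77 at 8 h after H2O2, a fall of 0.28 (SE 0.042, adjusted p = 2.67e-05). ATP5SL, an assembly protein of complex I, rose by 0.079 (SE 0.026, adjusted p = 0.0454) at 4 h and 0.11 (SE 0.026, adjusted p = 0.00533) at 8 h after NCS. The first of these calls was lost without any 1 of the 6 libraries compared, where the difference was 0.068 to 0.087. ATP5E, the ε subunit, was listed at a mean value of 0.21, far below the other F1 subunits, and with its pseudogene ATP5EP2 it passed no test. Whether this low value reflects the level of the transcript in the cells was not tested.

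**Figure D3:**
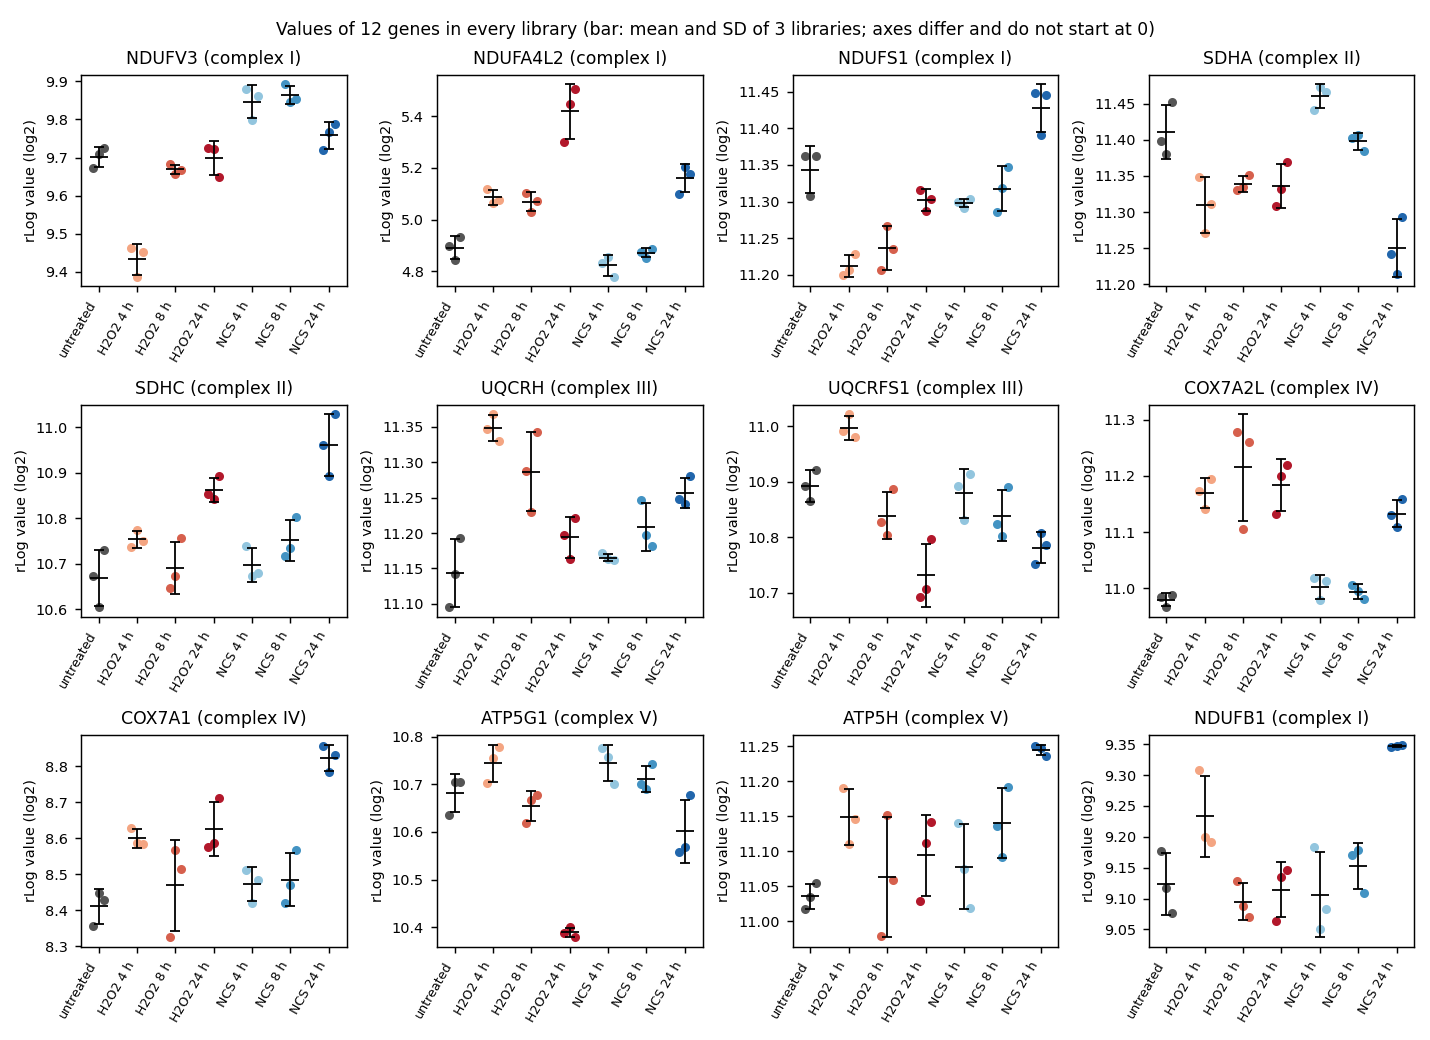
Points are the 3 libraries of each group for 12 members and bars their mean and SD, as rLog values (log2, axes that do not start at 0). NDUFV3 is lowest 4 h after H2O2, ATP5G1 at 24 h after H2O2 and SDHA 24 h after NCS, while NDUFA4L2 is highest 24 h after H2O2 and COX7A1 at 24 h after NCS.

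The direct comparison of oxidative stress with double-strand breaks at the same time needs no untreated cells. At 4 h, 25 members were higher after H2O2 than after NCS and 3 were lower, beside 26.3% and 18% of all genes. The upward share of the members, 29.1%, was close to that background. Of the 73 ordinary subunits, 19 were higher, or 26%. Without NCS 4 h replicate 2 the upward count was 14, with 3 in complex I and 1 in complex V against 6 and 5 in the full data. Complex IV held 9 of the 25, and its 14 members include isoforms and COX7A2L, which is not a subunit. At 8 h, 7 were higher and 10 lower, beside 18.7% and 15.4%. Without NCS 8 h replicate 2 these counts were 4 and 6, the upward count was also 4 without H2O2 8 h replicate 1, and with library medians aligned they were 12 and 6. At 24 h there were 3 higher and 16 lower, beside 11% and 10.9%. With library medians aligned, 1 was higher and 33 were lower. Without NCS 24 h replicate 1, 1 was higher.

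At 4 h NDUFA4L2, COX6B2 and UQCRH were highest after H2O2 relative to NCS, by 0.26, 0.25 and 0.18. The NDUFA4L2 call was lost with quantile normalization, where the difference was 0.11. NDUFV3, SDHA and NDUFS1 were lowest, with differences of -0.41, -0.15 and -0.086. The NDUFV3 difference had an SE of 0.029 and an adjusted p of 2.1e-09. At 8 h COX7A2L, NDUFA4L2 and COX6B2 led at 0.22, 0.20 and 0.16, and NDUFV3, NDUFA7 and ATP5S were lowest at -0.20, -0.18 and -0.17. The NDUFA7 call was lost without H2O2 8 h replicate 1 or NCS 8 h replicate 1 or 2. The ATP5S call was lost with only the groups compared in the fit. Of the 7 core subunits of complex I, 4 were lower after H2O2 at 8 h. Beside them, 15.4% of all genes were lower, and 27.8% of genes with a mean value of at least 10, tested alone. At 24 h NDUFA4L2 was higher by 0.26, with SDHA at 0.086 and NDUFB10 at 0.084. NDUFB1, ATP5G1 and COX7A1 were lower by 0.23, 0.21 and 0.20. The SDHA and NDUFB10 calls were lost with library medians aligned and with only the groups compared. Without H2O2 24 h replicate 3 or NCS 24 h replicate 1 or 2, the SDHA call was also lost. The NDUFB10 call was also lost without H2O2 24 h replicate 2 or NCS 24 h replicate 1. The COX7A1 call was lost without H2O2 24 h replicate 1 or 2 or NCS 24 h replicate 1.

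**Figure D4:**
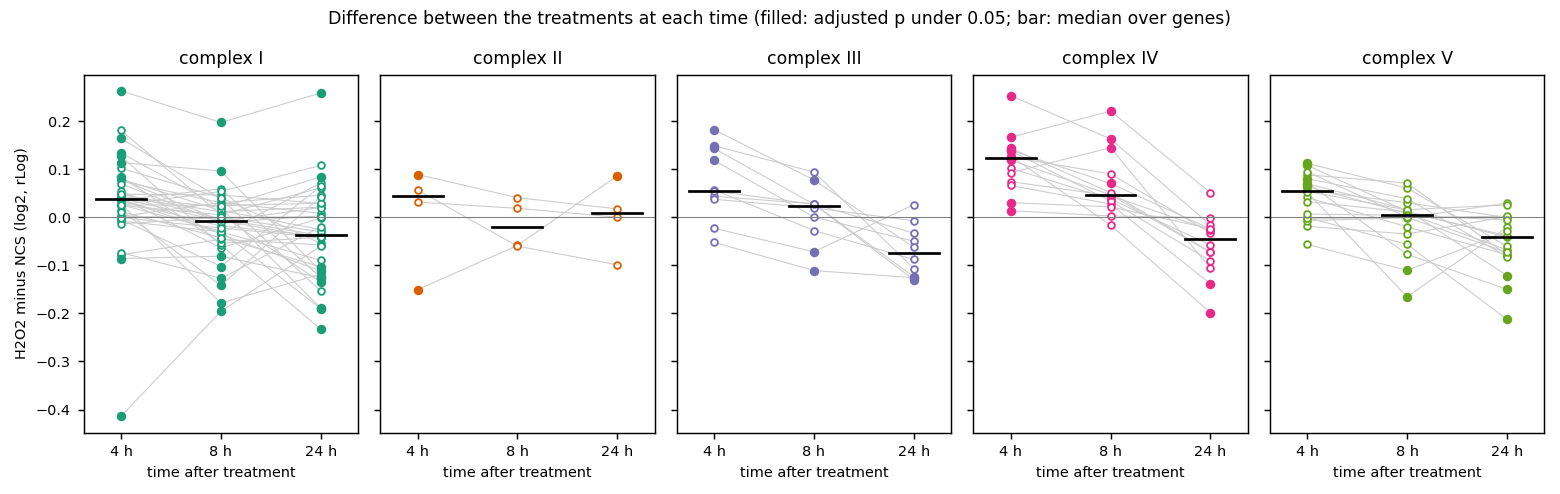
Lines join the H2O2 minus NCS differences (log2) of each member at 4, 8 and 24 h, with filled points for adjusted p under 0.05 and bars at the median of the complex. The complex IV median goes from 0.12 at 4 h to -0.045 at 24 h, and all 14 lines end below their start.

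The change of this difference between 4 h and 24 h was tested as an interaction, the H2O2 minus NCS difference at 24 h less that at 4 h. It passed the test for 37 of 86 members, 2 with a positive and 35 with a negative sign, beside 16.6% and 22.7% of all genes. All 14 members of complex IV had a negative value and 12 passed. In complex III 5 of 10 passed and in complex V 9 of 19, all negative. In complex I 8 of 39 passed with a negative and 1 with a positive sign, and in complex II 1 and 1 of 4. Of the 7 core subunits of complex I, none passed (1 was negative and 0 positive at an unadjusted p under 0.05). The positive ones were NDUFV3 and SDHA. Within H2O2, 8 members were higher and 28 lower at 24 h than at 4 h, beside 23.1% and 32.4% of all genes, and the downward share of the members was close to that background. Within NCS, 30 were higher and 7 lower, beside 19.5% and 18.8%. Among abundant genes, 5 of 59 members were higher and 25 lower within H2O2, beside 35.6% and 40.9%, and 26 and 6 within NCS, beside 38.1% and 34.1%. The downward count within NCS was 4 without NCS 4 h replicate 1 or 3 and 3 without NCS 24 h replicate 1.

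Several subunits exist as paired isoforms, whose untreated levels are compared here per kilobase of median transcript length (log2 rLog value per kilobase). COX6A1 stood at 12.28 and its muscle form COX6A2 at -0.58, COX6B1 at 11.96 and COX6B2 at 1.30, COX8A at 12.63 and COX8C at 0.20. COX7A2 at 11.90 and COX7A1 at 9.19 were closer together. NDUFA4 stood at 10.44 and NDUFA4L2 at 4.66. The 3 c-ring genes were near each other, ATP5G1 at 11.57, ATP5G2 at 11.90 and ATP5G3 at 11.98. The general isoform was thus the higher one in each pair, and the values near 0 came from genes at the bottom of the rLog scale.

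Subunits and carriers that the symbol rule misses were mostly called higher at 4 h after H2O2. Of 8 such genes, 6 were higher and 0 lower at 4 h after H2O2, beside 26.2% and 19.7% of all genes, 2 and 1 at 24 h, and 4 and 2 at 24 h after NCS. COX4I1, the largest nuclear subunit of complex IV, was 0.15 (SE 0.031, adjusted p = 0.00058) higher 4 h after H2O2, and its lung isoform COX4I2 was near the bottom of the scale, 0.38 per kilobase against 12.48. NDUFAB1, the acyl carrier protein of complex I, was 0.10 higher 4 h after H2O2 and 0.13 higher 24 h after NCS. USMG5, a small subunit of the ATP synthase, was higher by 0.17 to 0.20 at all 3 times after H2O2. The electron carrier cytochrome c (CYCS) fell by 0.29 (SE 0.043, adjusted p = 2.05e-05) at 24 h after H2O2, and cytochrome c1 (CYC1) fell by 0.18 (SE 0.042, adjusted p = 0.00202) at 24 h after NCS.

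The counts of the following lists are read against the calls over all genes, which were 26.2% higher and 19.7% lower 4 h after H2O2, 20.2% and 19.9% 24 h after H2O2, and 19.6% and 18.4% 24 h after NCS. Of 12 assembly factors of complex I, there were 6 higher and 1 lower 4 h after H2O2, 4 and 3 at 24 h after H2O2, and 4 and 4 at 24 h after NCS. C17orf89 rose by 0.38 at 24 h after NCS and FOXRED1 fell by 0.43 at 24 h after H2O2. For complex II, of 4 factors, there were 0 higher and 0 lower 4 h after H2O2, 0 and 1 at 24 h after H2O2, and 1 and 0 at 24 h after NCS, with SDHAF1 down by 0.25 at 24 h after H2O2 and C6orf57 up by 0.20 at 24 h after NCS. For complex III, of 6, there were 2 higher and 1 lower 4 h after H2O2, 1 and 2 at 24 h after H2O2, and 1 and 2 at 24 h after NCS. UQCC rose by 0.33 at 4 h after H2O2 and LYRM7 fell by 0.40 at 8 h.

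Of 20 assembly factors of complex IV, there were 1 higher and 3 lower 4 h after H2O2, 3 and 2 at 24 h after H2O2, and 3 and 2 at 24 h after NCS. COX19, a copper-handling factor of the intermembrane space, rose by 0.61 (SE 0.037, adjusted p = 3.34e-10) at 4 h after H2O2, more than any subunit, and CMC2 fell by 0.43 at 24 h. SCO2, a copper chaperone known as a p53 target, was listed at a mean of -0.90. It shares exons with TYMP on the same strand, and it did not pass the test in any of the 6 comparisons. Of 3 factors of complex V, there were 0 higher and 0 lower 4 h after H2O2, 1 and 0 at 24 h after H2O2, and 1 and 1 at 24 h after NCS. TMEM70 rose by 0.24 at 8 h after H2O2 and ATPAF1 fell by 0.15 at 24 h after NCS.

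Regulators of mitochondrial gene expression were called lower more often than higher at all 3 times after NCS and at 24 h after H2O2. Of 15 regulators, there were 4 higher and 3 lower 4 h after H2O2, 3 and 8 at 24 h after H2O2, and 2 and 7 at 24 h after NCS, beside 19.9% and 18.4% of all genes lower in the 24 h groups. There were 1 higher and 6 lower 4 h after NCS, beside 7.47% and 9.72% of all genes, 2 and 8 at 8 h after NCS, beside 10.5% and 13.3%, and 4 and 2 at 8 h after H2O2, beside 18.8% and 18.6%. TFAM, which packages and transcribes mitochondrial DNA, fell by 0.50 (SE 0.035, adjusted p = 7.97e-10) at 24 h after H2O2 and 0.70 (SE 0.035, adjusted p = 6.72e-12) at 24 h after NCS. NRF1, whose letters were searched in the promoters above, fell by 0.53 and 0.65, and PPRC1, a coactivator of the PGC-1 family, by 0.46 and 0.41. PPARA, a nuclear receptor of fatty acid oxidation, was 0.53 higher 24 h after H2O2, and the coactivator PPARGC1A was near the bottom of the scale at -1.63. At 24 h after NCS, the median of the regulators was -0.15 and that of the members 0.075.

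Of 76 mitochondrial ribosomal proteins, which make the subunits encoded by mitochondrial DNA, there were 10 higher and 10 lower 4 h after H2O2, 10 and 27 at 24 h after H2O2, and 10 and 26 at 24 h after NCS. The shares of all genes were 26.2% and 19.7%, 20.2% and 19.9%, and 19.6% and 18.4%. Of genes with a mean value of at least 10, tested alone, 40.5% were lower at 24 h after H2O2 and 34.6% at 24 h after NCS. The shares of these ribosomal proteins, 35.5% and 34.2%, were not above that. The median of these ribosomal proteins was -0.04 at 24 h after H2O2 and -0.055 at 24 h after NCS. MRPL49 rose by 0.26 at 8 h after NCS and MRPS26 fell by 0.38 at 24 h after NCS. Of 13 genes of coenzyme Q synthesis, there were 0 higher and 2 lower 4 h after H2O2, 3 and 3 at 24 h after H2O2, and 4 and 2 at 24 h after NCS. COQ2, which attaches the side chain of the quinone, fell by 0.70 at 24 h after NCS and ADCK3 rose by 0.40 at 8 h after H2O2. Of 14 genes of the TCA cycle, there were 4 higher and 3 lower 4 h after H2O2, 1 and 6 at 24 h after H2O2, and 4 and 5 at 24 h after NCS. IDH2 fell by 0.47 at 24 h after H2O2.

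Many members had short transcripts, a feature that the symbol rule did not use. The median transcript length was 751.5 bases over the 84 members with a length in GENCODE v29, against 2456 over all genes with one, and 55 members were under 1000 bases. In the H2O2 libraries of 4 h, 30 of 51 members under 1000 bases with a mean value of at least 7 were higher, and 10 of the 25 longer ones. Over all genes at this level, 45.8% of the 769 short and 19.1% of the 8995 longer genes were higher, with median differences of 0.086 and -0.047. The 769 short genes include the 51 members. The median of the short members, 0.11, stood beside that of 0.086 for all short genes. Across the 76 members the difference had a Pearson correlation of -0.45 with log2 length and a Spearman correlation of -0.31, and across all 9764 genes at this level of -0.27 and -0.38. These are correlations across genes of the same libraries, which are not independent.

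At 24 h after NCS, 27 of the 51 short and 10 of the 25 longer members were higher, against 34.9% and 30.6% of all short and longer genes, and the median of the short members was 0.13 against 0.045 for all short genes. The Spearman correlation with length was -0.32 across members and -0.04 across all genes. The part of transcript length in these results was not tested. NDUFV3, NDUFS1 and SDHA, the members that fell 4 h after H2O2, have median lengths of 3125.5, 2394 and 2107.5 bases, and UQCRH has 604.

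**Figure D5:**
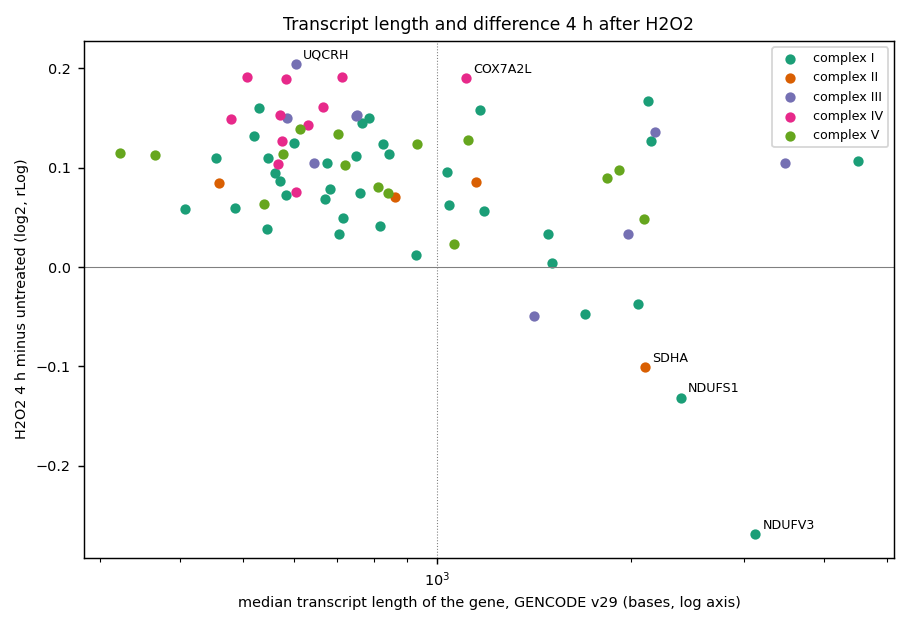
Each point is one of the 76 members with a mean value of at least 7, with the median transcript length in bases on a log axis and the difference 4 h after H2O2 (log2) on the other, coloured by complex. The 51 points left of 1000 bases include none that passed the test downward, and the 3 members that fell, NDUFV3, NDUFS1 and SDHA, are all well over 1000 bases.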

How the data were processed

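Gene expression was measured by RNA-seq of a TruSeq Stranded mRNA library from each of 21 samples. Per the submitters' processing notes and methods, the authors used HISAT2 for alignment to hg19, HTSeq for counting reads in Galaxy and DESeq2 for normalization. Versions and the strand setting of the counting are not given in the sources used here. The deposited table holds log2 values from the rLog transformation, which shrinks differences, most at low counts. Depth could not be read from it, so precision rests on the spread of 3 replicates.

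Of 23368 genes, 3674 were constant at 0 and were left out. One model of the 7 groups was fitted to the 19694 others with limma 3.58.1 (trend, R 4.3.3), with Benjamini-Hochberg adjustment over all of them, and genes were called at an adjusted p under 0.05. An exact permutation test of 3 against 3 libraries cannot go below p = 0.1 and was not used for calls. The model was tested on simulated data. Transcript lengths are medians over GENCODE v29 transcripts and promoters come from RefSeq GRCh38.p14. No genome or coordinates of hg19 were used, and exon overlaps with neighbours come from GENCODE v29. Level comparisons between genes subtract log2 of the length in kilobases.

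The members and gene lists were chosen with earlier results of these data known. Genes named are, for each complex and comparison with untreated cells, the largest called rise and fall with replicates that did not overlap, the 3 largest each way between treatments, complex II, the complex I core, the isoform pairs, members that are not subunits, and the extremes of each other list over the comparisons with untreated cells, with SCO2, PPARGC1A, TFAM, CYCS, CYC1 and NDUFAB1. NDUFS4, NDUFS5, NDUFB6, ATP5I, COX8A, NRF1, PPRC1 and genes that are only counted off in a sentence were picked after their values were seen. Some genes that this rule names are not reported here. Alternatives were aligned library medians, quantile normalization, filters on the mean value, limma without trend, only the groups compared, a replicate block, a limit of 0.58 on the log2 difference and leaving out each library.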

Additional observations from a re-analysis of the deposited data

Results flagged for a closer look

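The H2O2 minus NCS difference changed between 4 h and 24 h, by limma's interaction test at an adjusted p under 0.05, for 37 of the 86 members, of which 2 changed upward and 35 downward. The same test called 16.6% of all genes upward and 22.7% downward, so the number of members with a change was near that background, and most of them changed downward. The members with the largest negative change were NDUFB1 at -0.36, COX7A1 at -0.33 and NDUFA4 at -0.32 on the log2 scale, and the positive changes were those of NDUFV3 at 0.35 and SDHA at 0.24. Leaving out 1 library at a time gave 28 to 37 members with a change.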

How the results depend on the processing

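At 4 h after H2O2 and at 24 h after NCS more members were higher than lower under every alternative, except the limit of 0.58 on the log2 difference, under which every count of members called in a comparison was 0. At 4 h after H2O2, 33 were higher and 3 lower with library medians aligned and 58 and 4 with quantile normalization, and at 24 h after NCS 40 and 2, and 46 and 1. Other counts moved by over 1.5 times, and the cause was not tested. With library medians aligned, 9 members were lower at 24 h after H2O2, 1 was higher and 4 were lower at 8 h after NCS, 12 were higher and 6 lower after H2O2 than after NCS at 8 h and 1 higher and 33 lower at 24 h, and 2 were lower at 24 h than at 4 h within NCS. With quantile normalization, 33 were higher at 24 h after H2O2, 7 higher at 4 h after NCS, 17 higher and 1 lower at 8 h after NCS, 1 lower at 24 h after NCS, 5 lower after H2O2 than after NCS at 4 h and 5 higher at 24 h. With only genes at a mean value of at least 5 tested, 8 were lower at 8 h after H2O2, 7 higher at 4 h and 7 higher at 8 h after NCS, and 5 lower at 24 h after NCS. With a mean value of at least 10, 5 were higher at 8 h and 5 lower at 24 h after NCS, 6 lower after H2O2 than after NCS at 8 h, and 5 higher at 24 h than at 4 h within H2O2. With only the groups compared in the fit, 6 were higher at 8 h after H2O2 and 4 lower after H2O2 than after NCS at 8 h. Without the trend, 1 was lower at 8 h after NCS. With the replicate number as a block, 8 were higher at 4 h and 5 at 8 h after NCS, and no other count of members in these comparisons moved by over 1.5 times. The numbers were not taken to pair the samples: libraries with the same number had a mean correlation of deviations of 0.0274, against -0.0137 for other numbers, and 12 of 63 pairs were over 0.1. Leaving out 1 library at a time gave 31 to 39 members higher and 3 lower at 4 h after H2O2, 8 to 15 higher and 3 to 6 lower at 8 h, and 14 to 19 and 3 to 5 at 24 h. After NCS it gave 2 to 4 higher and 0 lower at 4 h, 2 to 6 and 0 to 1 at 8 h, and 32 to 40 and 2 to 4 at 24 h. Between treatments it gave 14 to 21 higher and 3 lower at 4 h, 4 to 9 and 6 to 10 at 8 h, and 1 to 4 and 11 to 18 at 24 h. From 4 h to 24 h it gave 6 to 9 higher and 22 to 25 lower within H2O2 and 25 to 31 and 3 to 8 within NCS, with 28 to 37 for the interaction and 51 to 61 for variation over all groups. Without untreated replicate 1 or 2 or NCS 4 h replicate 1 the 4 h NCS count was 2. Of the values of single named genes under the alternatives, 1007 kept their direction and their side of the threshold, 63 kept the direction without passing the threshold, and 0 reversed. Differences are shrunken by the rLog transformation, the depth is unknown, and low genes such as COX6B2 and NDUFA4L2 are limited most.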

Other observations

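Per kilobase of transcript, the ordinary subunits of complexes IV and V stood highest in untreated cells, with medians of 11.7 over 9 genes and 11.6 over 14 on the log2 scale, followed by complex III at 11.1 over 8, complex II at 10.7 over 4 and complex I at 10.4 over 37. The ranges overlapped, from 8.06 to 11.8 in complex I and from 10.6 to 12.6 in complex IV. ATP5B, the catalytic β subunit of the ATP synthase, was the highest at 13.2. The 14 genes of complex V leave out ATP5E, listed at a mean value of 0.21.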
